A study of Mus musculus with 8 samples.

Results

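The secreted ligands of the TGF-beta superfamily were followed in mouse heart through 8 genes, namely the TGF-beta isoforms Tgfb1, Tgfb2 and Tgfb3, the myostatin gene Mstn, the activin and inhibin subunits Inhba and Inhbb, and the bone morphogenetic proteins Bmp2 and Bmp4. The members were the probe sets of an Affymetrix Mouse Genome 430 2.0 array whose annotated symbol is 1 of these genes. 7 of the 8 genes had a probe set, with 13 probe sets among the 45037 that are not array controls, and no probe set carried the symbol Mstn in the annotation used here, so Mstn was not analysed here. RNA came from the hearts of 8 female mice, 1 array per heart and 2 mice in each of 4 groups: 10-week-old KO, 10-week-old WT, 4-week-old KO and 4-week-old WT. The KO mice carried a deletion of 1 gene made conditional by MCK, the muscle creatine kinase driver, and KO and WT mice of the same age were littermates. MCK is active in heart and skeletal muscle fibres, so other cells of a KO heart, such as fibroblasts, endothelial cells and macrophages, are known to keep the gene. Whether the WT mice carried the Cre transgene or the unrecombined conditional alleles was not given in the sources used here, and neither was the strain.

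Ligands of this superfamily are made as precursors, cut by proprotein convertases and secreted as dimers. The TGF-beta isoforms leave the cell bound to their own propeptide and to a latent TGF-beta binding protein, and must be released by integrins, thrombospondin or proteases before they can bind. A released dimer joins type II and type I receptor kinases. These phosphorylate SMAD2 and SMAD3 for TGF-betas and activins or SMAD1, SMAD5 and SMAD9 for bone morphogenetic proteins. SMAD4 joins the phosphorylated SMADs in complexes that act in the nucleus. In the heart TGF-beta signalling is known for turning fibroblasts into matrix-producing cells and for raising collagen, periostin and connective tissue growth factor.

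All 8 arrays read as heart, with cardiomyocyte markers such as Myh6, the adult cardiac myosin heavy chain, at a mean of log2 13.63 in 10-week KO hearts and log2 13.49 in 10-week WT hearts. The first principal component over all genes carried 51.9% of the variance and set the 10-week KO arrays apart from the other 6. The second carried 24.3% and set apart replicate 1 of the 10-week WT hearts, the array with the highest summed kidney marker level, 919, against 97.8 to 296 on the other 7. Its summed liver markers were 3787, against 396 in the other 10-week WT heart, and reached 3935 in a 4-week KO heart. Some results at 10 weeks are therefore also given without that array, and values given only with it may depend on it too. Whole hearts were extracted, so fewer cells of a type and less RNA per cell cannot be told apart in any value below.

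Tgfb2 and Tgfb3 were higher in 10-week KO hearts than in WT littermates. They were the only ligand genes of the 7 measured that passed the test at 10 weeks (limma, Benjamini-Hochberg adjusted p under 0.05 over 18193 genes), which 12.1% of all genes passed, 5.19% with KO higher and 6.89% with KO lower. Tgfb2 read 6.22 times its WT level in KO hearts and Tgfb3 1.74 times. At 4 weeks none of the 7 passed. Tgfb2 was the only member to pass the test of a KO effect that differs between the ages, a call that held under 10 of 16 alternative settings.

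The promoters of Tgfb2, the member with the widest difference, and of Tgfb1, the isoform that did not pass, are shown because these closely related ligands have unlike start regions. Each line holds the 250 bases before the annotated transcript start, 5′ to 3′ on the gene's strand, from RefSeq's annotation of GRCm38.p6, in which 6 of the 8 listed genes had an entry, Tgfb3 and Bmp2 not among them. Tgfb2 lies on the minus strand at chr1:186705990-186706239, a window inside the gene's annotated interval, whose far end is at 186709697. Tgfb1 lies on the plus strand at chr7:25686752-25687001. Capitals mark a TATA box (TATAAA), an E-box (CACGTG), a CRE core (TGACG or its reverse complement CGTCA) and GC boxes (GGGCGG or its reverse complement CCGCCC).
Tgfb2: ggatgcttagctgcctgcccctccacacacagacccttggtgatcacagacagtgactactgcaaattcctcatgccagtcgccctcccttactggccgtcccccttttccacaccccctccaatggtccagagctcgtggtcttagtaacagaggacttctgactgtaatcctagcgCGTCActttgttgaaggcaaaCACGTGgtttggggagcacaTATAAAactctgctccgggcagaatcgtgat
Tgfb1: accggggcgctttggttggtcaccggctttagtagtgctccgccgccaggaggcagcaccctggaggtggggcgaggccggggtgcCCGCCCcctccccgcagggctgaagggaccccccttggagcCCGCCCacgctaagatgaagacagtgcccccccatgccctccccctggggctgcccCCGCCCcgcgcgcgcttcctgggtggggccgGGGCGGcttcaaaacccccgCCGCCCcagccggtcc
The Tgfb2 window held 1 TATA box starting 31 bases before the start, 1 E-box starting 51 bases before it and 1 CRE core starting 72 bases before it, and no GC box. The Tgfb1 window held 5 GC boxes and none of the other 3 motifs. GC content was 53.6% in the Tgfb2 window and 75.2% in the Tgfb1 window. Over 32851 mouse promoter windows of 250 bases, searched on both strands, 12.4% held a TATA box, 6.02% an E-box, 17.8% a CRE core and 32.7% a GC box, and none of these motifs overlapped another in the windows shown. CAGAC, the letters of a SMAD box, occurred 2 times in the Tgfb2 window, in lower case, at 221 and 204 bases before the start, was not found in the Tgfb1 window, and was found in 42.2% of all windows. TGATGNAA, the core of an ATF4 element, was in neither window and in 3.45% of all. Other listed genes with an entry held these motifs too, a TATA box for Inhba and Mstn, an E-box for Bmp4 and a CRE core for Mstn. Inhbb and Bmp4 each held 1 GC box, and Mstn held CAGAC 2 times. These are matches of letters, binding was not measured, and no link of the motifs to the KO differences was tested.

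Tgfb2 encodes the TGF-beta isoform that is needed for the valves and outflow tract of the developing heart. Its brightest probe set, 1423250_a_at, read 365 and 347 in the 10-week KO hearts, against 46.2 and 70.8 in the 10-week WT hearts (RMA intensity on the linear scale). In the 4-week KO hearts it read 78.6 and 107, against 51.3 and 70.6 in the 4-week WT hearts. Both 10-week KO arrays stood far above the other 6, whose values ran from 46.2 to 107. On the log2 scale the means were 8.47 ± 0.05 in 10-week KO, 5.84 ± 0.44 in 10-week WT, 6.52 ± 0.31 in 4-week KO and 5.91 ± 0.32 in 4-week WT hearts (SD, n = 2 each). The KO minus WT difference at 10 weeks was 2.64 ± 0.23 (SE), with an adjusted p of 0.000220. Without WT replicate 1 at 10 weeks it was 2.33, with an adjusted p of 0.000289.

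The other 3 probe sets of Tgfb2 were dimmer and also passed at 10 weeks when all probe sets were tested. 1450922_a_at read 88.4 and 151 in 10-week KO hearts, against 23.0 and 19.7 in WT, a difference of 2.44 ± 0.26. 1450923_at read 30.0 and 27.0 in 10-week KO hearts, against 11.1 and 12.4 in WT, a difference of 1.28 ± 0.13. 1438303_at read 19.4 and 17.5 in 10-week KO hearts, against 10.2 and 11.1 in WT, a difference of 0.79 ± 0.12. The 4 probe sets thus had the same direction and no overlap between KO and WT arrays, and their differences ranged from 0.79 to 2.64. Their adjusted p-values over all probe sets ran from 0.000222 for the brightest to 0.00391 for 1438303_at. 3 of the 4 were designed from the same sequence record, so they are not independent measurements of the transcript.

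**Figure D1:**
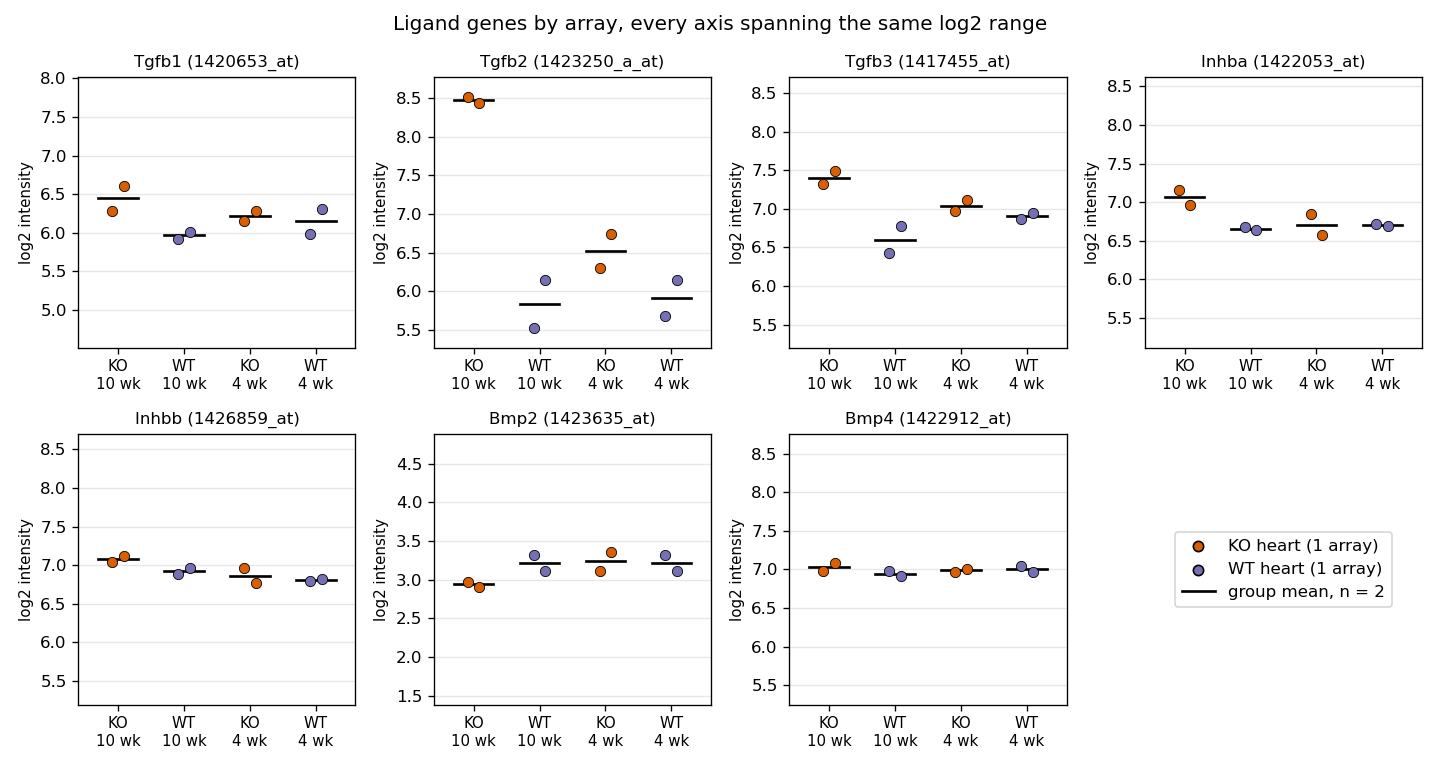
Level of the 7 measured ligand genes on each array, as log2 RMA intensity of the brightest probe set, with KO hearts in orange, WT hearts in purple and a line at each group mean (n = 2). Every vertical axis spans the same log2 range. Only Tgfb2 shows a wide step, with both 10-week KO arrays above log2 8.4 and the other 6 arrays below log2 6.8.

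Tgfb3 encodes the third TGF-beta isoform, which uses the same receptors. Its probe set 1417455_at read 160 and 179 in 10-week KO hearts, against 85.8 and 110 in 10-week WT hearts. In 4-week hearts it read 125 and 139 in KO, against 117 and 123 in WT. The KO arrays lay above the WT arrays at each age, with the WT values lowest at 10 weeks. The difference at 10 weeks was 0.80 ± 0.15 (adjusted p = 0.00786), between means of log2 7.40 ± 0.12 in KO and 6.60 ± 0.25 in WT (SD, n = 2 each). Without WT replicate 1 it was 0.62 (adjusted p = 0.0263), without KO replicate 2 it was 0.72 and no longer passed (adjusted p = 0.0604), and in a fit to the 10-week arrays alone the adjusted p was 0.0547.

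Tgfb1 encodes the isoform most often tied to fibrosis. Its brightest probe set, 1420653_at, read 78.1 and 97.1 in 10-week KO hearts, against 60.8 and 64.5 in 10-week WT hearts. In 4-week hearts it read 71.4 and 77.9 in KO, against 63.5 and 79.5 in WT. The groups were separate at 10 weeks and overlapped at 4 weeks. The difference at 10 weeks was 0.48 ± 0.16 and did not pass over all genes (adjusted p = 0.0859). The second probe set, 1445360_at, read 28.2 and 26.3 in 10-week KO hearts, against 30.6 and 27.5 in WT, a difference of -0.09.

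**Figure D2:**
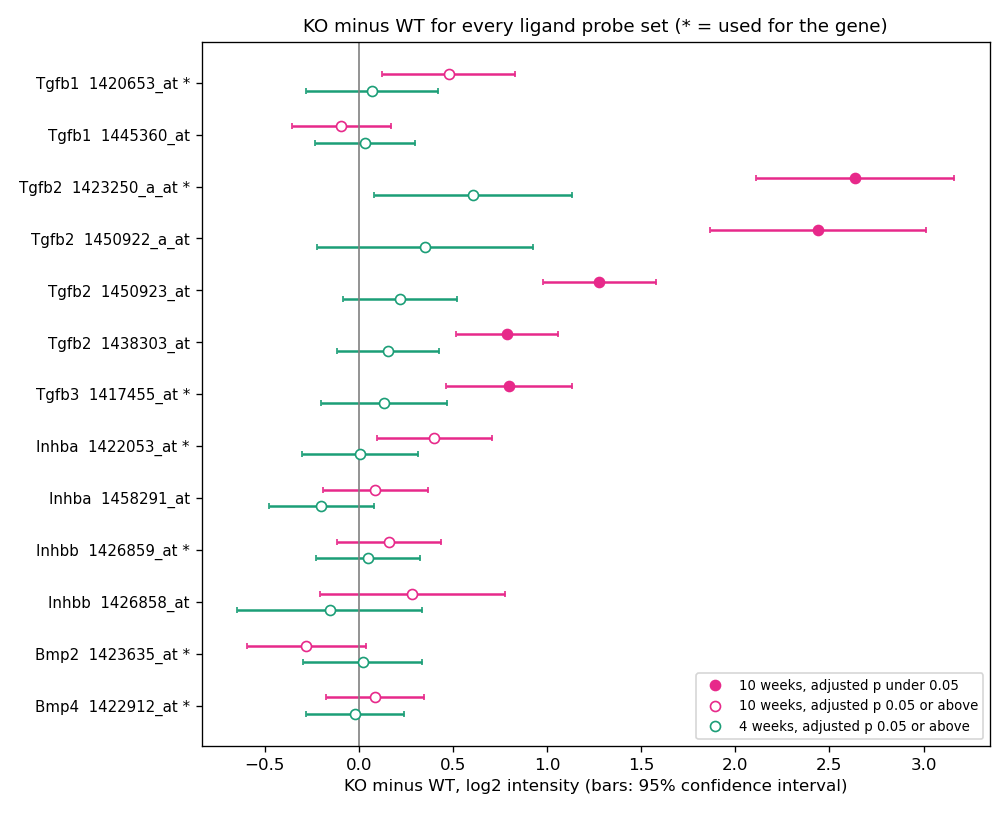
KO minus WT difference of each of the 13 ligand probe sets on the log2 scale at 10 weeks (pink) and 4 weeks (green), with 95% confidence intervals from the fit to all 8 arrays. Filled points passed the test, and an asterisk marks the probe set used for the gene. The 4 Tgfb2 probe sets and the Tgfb3 probe set are filled at 10 weeks, and no point is filled at 4 weeks.

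The activin and inhibin subunits were measured through 2 probe sets each. Inhba encodes the beta A chain, whose dimer is activin A. Its brightest probe set, 1422053_at, read 143 and 124 in 10-week KO hearts, against 102 and 99.7 in WT. In 4-week hearts it read 115 and 95.1 in KO, against 105 and 103 in WT. The 10-week KO arrays were the highest of the 8, and at 4 weeks the KO arrays lay on either side of the WT arrays. The difference at 10 weeks was 0.40 ± 0.14 (adjusted p = 0.0957), and the second probe set, 1458291_at, differed by 0.09. Inhbb encodes the beta B chain. Its brightest probe set, 1426859_at, read 132 and 139 in 10-week KO hearts, against 118 and 125 in WT, a difference of 0.16 ± 0.12 (adjusted p = 0.506). Its second, 1426858_at, read 25.4 and 14.4 in 10-week KO hearts, against 15.9 and 15.5 in WT, so that 1 KO array stood high and the other below both WT arrays.

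Bmp2 and Bmp4 encode bone morphogenetic proteins that pattern the embryonic heart. The single Bmp4 probe set, 1422912_at, read 126 and 136 in 10-week KO hearts, against 126 and 121 in WT. In 4-week hearts it read 126 and 128 in KO, against 132 and 125 in WT. Its levels on the 8 arrays thus stayed within 121 to 136, and the difference at 10 weeks was 0.09 ± 0.12 (adjusted p = 0.738). The single Bmp2 probe set, 1423635_at, was dim, at 7.83 and 7.51 in 10-week KO hearts, against 9.96 and 8.68 in WT, where the lowest value in the whole table was 4.90. Its mean level was at percentile 7.54 of all probe sets, near the bottom of the table. Bmp2 was the only member whose 10-week KO arrays lay below the WT arrays, by -0.28 ± 0.14 (adjusted p = 0.279).

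By the brightest probe set, KO arrays in 10-week hearts were above WT arrays without overlap for 6 of the 7 members and below for 1, the dim Bmp2. Over all genes 23.7% had both KO arrays above and 23.5% had both below. The second probe sets of Tgfb1, Inhba and Inhbb overlapped, and the gap for Bmp4 was narrow (126.3 in KO against 125.9 in WT). The median difference of the 7 members was 0.40, with 0.0048 over all genes, and 4 of the 7 had an unadjusted p under 0.05, as did 23.6% of all genes. In 4-week hearts KO and WT were separate for Tgfb2 and Tgfb3, both with KO above, where 19.4% of all genes had KO above and 17.5% KO below. None of the 7 members passed at 4 weeks (limma), where 0.0275% of all genes passed, 1 had an unadjusted p under 0.05, as did 3.73% of all genes, and the median difference was 0.05, with 0.012 over all genes. That member was Tgfb2, with a difference of 0.61 ± 0.23 (unadjusted p = 0.0282, adjusted p = 0.999). It was 0.38 without KO replicate 2 at 4 weeks, 0.38 without WT replicate 1 and 0.22 without shared-sequence probe sets (unadjusted p = 0.203, 0.214 and 0.145), and a further Tgfb2 probe set, 1450922_a_at, overlapped between KO (19.7 and 22.8) and WT (13.6 and 20.3). The Tgfb2 probe sets 1450923_at and 1438303_at had KO above WT without overlap at 4 weeks, by 0.22 ± 0.13 and 0.15 ± 0.12, neither passing. The 4-week differences of Tgfb3 and Tgfb1 were 0.13 ± 0.15 and 0.07 ± 0.16.

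The test of the KO effect at 10 weeks minus that at 4 weeks passed for 1 of the 7 members, with 2.08% of all genes passing. Over all genes that was 160 higher and 219 lower, against 21 and 19 without WT replicate 2 at 4 weeks and 808 and 792 without WT replicate 2 at 10 weeks. Tgfb2 had a larger KO effect at 10 weeks by 2.03 ± 0.33 on the log2 scale (adjusted p = 0.0211). It was 1.72 without WT replicate 1 at 10 weeks (adjusted p = 0.0195). It no longer passed when any of the 4-week arrays or either 10-week KO array was left out, with adjusted p-values of 0.0610 to 0.144 and differences of 1.80 to 2.26. Of the further Tgfb2 probe sets, tested over all probe sets (limma), 1450922_a_at (2.09) and 1450923_at (1.06) passed. The dimmest, 1438303_at, did not (0.63, adjusted p = 0.138). For Tgfb3 the difference of effects was 0.67 ± 0.21 (adjusted p = 0.169), for Tgfb1 0.41 ± 0.22 and for Inhba 0.40.

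Within KO hearts Tgfb2 was higher at 10 weeks than at 4 weeks by 1.96 ± 0.23 (3.88-fold, adjusted p = 0.00133), the only member of 7 to pass, where 10.5% of all genes passed (622 higher and 1286 lower, but 196 and 331 without KO replicate 2 at 4 weeks). Within WT hearts none of the 7 passed between the ages (limma, 0.115% of all genes, 9 higher and 12 lower, but 1039 and 1907 without WT replicate 2 at 10 weeks), none had an unadjusted p under 0.05 (18.1% of all genes), and the Tgfb2 difference was -0.07. Tgfb3 read higher at 10 weeks than at 4 weeks in KO, by 0.36 ± 0.15, and lower in WT, by -0.31 ± 0.15, and neither passed (adjusted p = 0.167 in KO and 0.301 in WT). The WT value was -0.13 without WT replicate 1 at 10 weeks and -0.49 without replicate 2 (adjusted p = 0.0525). In order of mean level, Tgfb2 ran from 10-week KO through 4-week KO and 4-week WT to 10-week WT, and of these steps only that between 10-week KO and 4-week KO passed the test. Litter and any processing day differed between the ages as age did and cannot be told apart from it.

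Of 20 other ligands of the superfamily measured, among them Bmp6, Bmp10, Gdf11, Inha and Nodal, none passed at 10 weeks (limma). None had an unadjusted p under 0.05, and the median difference was -0.019. Over all genes 12.1% passed and 23.6% had an unadjusted p under 0.05. Bmp10, a ligand made by atrial muscle, read 201 and 181 in 10-week KO hearts, against 121 and 193 in WT. The WT values lay far apart, and the difference of 0.32 ± 0.21 (adjusted p = 0.429) became -0.01 without WT replicate 1 and 0.66 without WT replicate 2 (adjusted p = 0.0288). Gdf11, a close relative of myostatin, differed by 0.20 ± 0.13 (adjusted p = 0.396).

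Among 18 genes for ligand latency, processing and activation, 4 rose in 10-week KO hearts and none fell (5.19% and 6.89% of all genes). The median difference was 0.18. Ltbp2, a matrix protein of the latent TGF-beta binding protein family that is itself not known to bind latent TGF-beta, read 112 and 106 in KO hearts, against 27.8 and 27.5 in WT, a difference of 1.98 ± 0.12 (adjusted p = 2.76e-05). Thbs1, thrombospondin, which can release TGF-beta from its propeptide, read 197 and 131 in KO hearts, against 46.2 and 52.8 in WT, a difference of 1.70 ± 0.22 (adjusted p = 0.00123). Itgb5, the beta chain of an integrin that can pull latent TGF-beta open, read 965 and 961 in KO hearts, against 488 and 498 in WT, a difference of 0.97 ± 0.13 (adjusted p = 0.00191). The KO and WT values of these 3 genes lay far apart, and every further probe set of Thbs1 and Itgb5 passed in the same direction. Emilin1, a matrix protein known to hold back processing of the TGF-beta precursor, read 112 and 110 in KO hearts, against 55.1 and 72.8 in WT, a difference of 0.81 ± 0.16 (adjusted p = 0.0112) that did not pass without either 10-week KO array (adjusted p = 0.0690 and 0.0575). Ltbp1, Ltbp3 and Ltbp4, which carry the latent isoforms, differed by -0.14, 0.61 and 0.20, and the convertase gene Furin by -0.10, none passing. Without WT replicate 1 at 10 weeks 4 genes of the list were called higher and 2 lower.

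Of 19 secreted or membrane antagonists and decoys, 4 rose in 10-week KO hearts and 2 fell (5.19% and 6.89% of all genes). The median difference was 0.086. The proteoglycan genes Bgn (biglycan) and Dcn (decorin), whose products bind TGF-beta in the matrix, rose by 1.84 ± 0.24 and 1.02 ± 0.18 (adjusted p = 0.00147 and 0.00659). WT replicates 1 and 2 read 585 and 1070 for Bgn, and 3189 and 4862 for Dcn, so the low replicate 1 widened both differences. A further probe set of Dcn differed by -0.15. Bambi, a decoy receptor that lacks the kinase and that bone morphogenetic proteins and TGF-beta are known to induce, read 97.9 and 133 in KO hearts, against 304 and 250 in WT, and fell by 1.27 ± 0.17 on the log2 scale (adjusted p = 0.00141). Both KO values of Bambi were below all 6 other arrays. Dand5 (-0.60 ± 0.14, adjusted p = 0.0228) and Sost (0.52 ± 0.13, adjusted p = 0.0281) did not pass without WT replicate 1 at 10 weeks (adjusted p = 0.0910 and 0.0643), nor without any of the 10-week KO or 4-week WT arrays, and a further Sost probe set differed by -0.08. Follistatin (Fst), the main soluble inhibitor of activins, and the bone morphogenetic protein antagonist Nog differed by 0.41 and 0.38 and did not pass. Without single arrays 2 or 3 genes of this list were called higher and 1 or 2 lower.

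Of 14 receptors and co-receptors, 1 rose and 2 fell in 10-week KO hearts (5.19% and 6.89% of all genes). The median difference was -0.11. Tgfbr3, betaglycan, the co-receptor that presents TGF-beta 2 in particular to the signalling receptors, read 162 and 152 in KO hearts, against 310 and 363 in WT. Its difference was -1.10 ± 0.17 (adjusted p = 0.00338), and its other probe set differed by -0.34. Tgfbr1, the type I TGF-beta receptor, read 447 and 319 in KO hearts, against 231 and 243 in WT, a difference of 0.68 ± 0.16 (adjusted p = 0.0266). KO replicate 1 was the higher array, and without it the difference was 0.43 (adjusted p = 0.159). Tgfbr1 also did not pass without WT replicate 1 at 10 weeks (adjusted p = 0.0721) or without either 4-week WT array (adjusted p = 0.0605), and its 2 further probe sets differed by 0.45 and 0.41, neither passing. Acvrl1, a type I receptor of endothelial cells, differed by -0.62 ± 0.13 (adjusted p = 0.0116) but by 0.07 on its other probe set, so its direction depends on the probe set, and it did not pass without either 10-week KO array (adjusted p = 0.0612 and 0.0622). Tgfbr2, the type II TGF-beta receptor, differed by 0.16 ± 0.21.

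Among 13 SMADs and their regulators, 4 rose in 10-week KO hearts and none fell (5.19% and 6.89% of all genes), with a median difference of 0.17. All 4 encode proteins that are known to restrain the pathway. Ski, Smurf2 and Tgif1 of this list, which are known to restrain it too, did not pass. Smad6 (0.84 ± 0.16, adjusted p = 0.00884) and Smad7 (0.56 ± 0.15, adjusted p = 0.0474) are inhibitory SMADs, Skil (0.57 ± 0.15, adjusted p = 0.0365) is a nuclear repressor of SMADs, and Smurf1 (0.47 ± 0.12, adjusted p = 0.0383) is a ubiquitin ligase for SMADs and receptors. Smad6 read 170 and 190 in KO hearts, against 86.8 and 117 in WT, and did not pass without KO replicate 2 (adjusted p = 0.0657). Without WT replicate 1 at 10 weeks Smad7 differed by 0.33, Skil by 0.44 and Smurf1 by 0.35, none passing. The further probe sets of Skil (0.16) and Smad7 (0.47) did not pass (adjusted p = 0.771 and 0.0652), and that of Smurf1 (0.58) did. Only 1 gene of this list was called when any 1 of 7 arrays was left out, the exception being WT replicate 2 at 10 weeks. The signal-carrying Smad2, Smad3 and Smad4 differed by -0.13, -0.07 and 0.38, none passing.

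**Figure D3:**
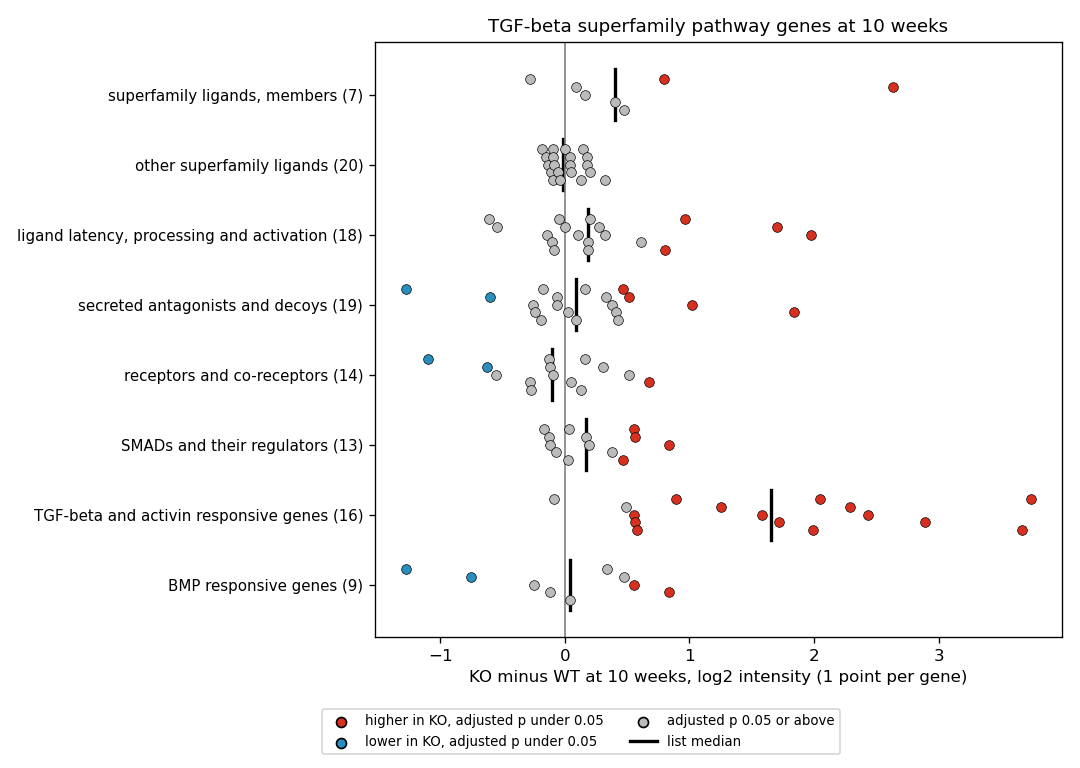
KO minus WT difference at 10 weeks on the log2 scale for each measured gene of the 8 pathway lists, with the number measured in brackets. Red points passed the test upward, blue points downward, grey points did not pass, and the black bar is the list median. The median of the TGF-beta and activin responsive genes is 1.65, and those of the other lists lie between -0.11 and 0.40.

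The genes known to respond to TGF-beta and activin rose together in 10-week KO hearts, with a median difference of 1.65. Of 16 genes 14 passed upward and none downward, against 5.19% and 6.89% of all genes. The count was 12 without WT replicate 1 at 10 weeks and 10 to 14 over the arrays left out in turn. The widest difference was that of Timp1, an inhibitor of matrix metalloproteases, at 2825 and 1137 in KO hearts, against 140 and 128 in WT (3.74 ± 0.33, adjusted p = 0.000225). Postn, periostin, a matrix protein of activated fibroblasts, read 5792 and 6648 in KO hearts, against 409 and 583 in WT (3.67 ± 0.20, adjusted p = 2.29e-05). Ccn2, connective tissue growth factor, read 3223 and 3844 in KO hearts, against 623 and 684 in WT (2.43 ± 0.14, adjusted p = 2.61e-05). In each of these 3 genes the KO arrays lay above every other array of the study. Lox, which cross-links collagen, rose by 2.89 ± 0.22 (adjusted p = 0.000100), though 1 of its further probe sets differed by 0.35, and Comp, cartilage oligomeric matrix protein, by 2.29 ± 0.24 (adjusted p = 0.000513). Tgfbi (0.49) and Acta2 (-0.08), the smooth muscle actin of myofibroblasts, did not pass. In the 4-week hearts none of the 16 passed (limma), where 0.0275% of all genes passed, and the median difference was 0.24. An unadjusted p under 0.05 was seen for 4 of them and for 3.73% of all genes. Smad7 and Skil stand in both this list and the SMAD list.

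Collagen and elastin genes of that list showed another order across the groups. Col1a1, the alpha 1 chain of type I collagen, read 402 and 391 in 10-week KO hearts, against 87.7 and 105 in 10-week WT hearts. In 4-week hearts it read 468 and 588 in KO, against 334 and 513 in WT. The 10-week KO values were thus within the range of the 4-week hearts, and the 10-week WT values were the low ones. Between the ages in WT hearts Col1a1 fell by 2.11 ± 0.21, Col3a1 by 2.08 ± 0.17 and Eln by 1.45 ± 0.18 on the log2 scale (adjusted p = 0.00678, 0.00347 and 0.0270). KO minus WT at 10 weeks was 2.05 ± 0.21 for Col1a1, 1.99 ± 0.17 for Col3a1 and 1.72 ± 0.18 for Eln, and 1.13, 3.36 and 0.78 in the same order on their further probe sets, all passing. Ccn2, Postn, Timp1, Lox, Comp and Tagln were instead higher at 10 weeks than at 4 weeks in KO hearts, Ccn2 by 2.89 ± 0.14 and Timp1 by 3.30 ± 0.33 (adjusted p = 2.48e-05 and 0.000603).

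The 9 genes known to respond to bone morphogenetic proteins moved both ways in 10-week KO hearts, 2 rising and 2 falling (5.19% and 6.89% of all genes). Their median difference was 0.044. The 2 that rose, Smad6 and Smad7, and Bambi, which fell, are counted above as well. Id1, a repressor that is a direct target of these ligands, read 486 and 493 in KO hearts, against 918 and 744 in WT, and fell by 0.76 ± 0.14 on the log2 scale (adjusted p = 0.00656). Id2 and Id3 differed by 0.47 and -0.25, neither passing.

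Markers of other heart cells moved at 10 weeks as well, where 5.19% of all genes passed upward and 6.89% downward. Of 7 fibroblast markers 5 rose in KO hearts (Tcf21, Dcn, Lum, Col1a1 and Col1a2) and none fell, though Pdgfra and Dpt differed by 0.24 and -0.07. The summed intensity of these 7 was 12612 to 12949 in 10-week KO hearts, against 6399 to 8124 in 10-week WT hearts. At 4 weeks it was 9124 to 10555 in KO hearts, against 8903 to 9843 in WT hearts. Dcn alone read 8059 and 7878 in 10-week KO hearts, against 3189 and 4862 in 10-week WT hearts, a large part of these sums. Of 7 macrophage markers 4 rose, Cd68 by 1.80, Csf1r by 1.11, Mrc1 by 1.06 and Adgre1 by 0.47, with sums of 6676 to 8147 in 10-week KO hearts, against 4519 to 5131 in 10-week WT hearts, and 4552 to 5122 in 4-week KO hearts, against 4328 to 4753 in 4-week WT hearts. Of 8 cardiomyocyte markers 3 fell (Tnni3, Ryr2 and Pln) and none rose, with sums of 82794 to 92164 in 10-week KO and 90471 to 104430 in 10-week WT hearts, and 99015 to 100330 in 4-week KO and 104920 to 104990 in 4-week WT hearts. Of 7 endothelial markers 1 rose (Emcn), and of 6 smooth muscle and pericyte markers 1 fell (Kcnj8), with sums that overlapped between KO and WT at 10 weeks. No marker was listed at 0, Dcn, Col1a1, Col1a2 and Acta2 also stand in the lists above, and the part of these cell types in the ligand differences was not tested.

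**Figure D4:**
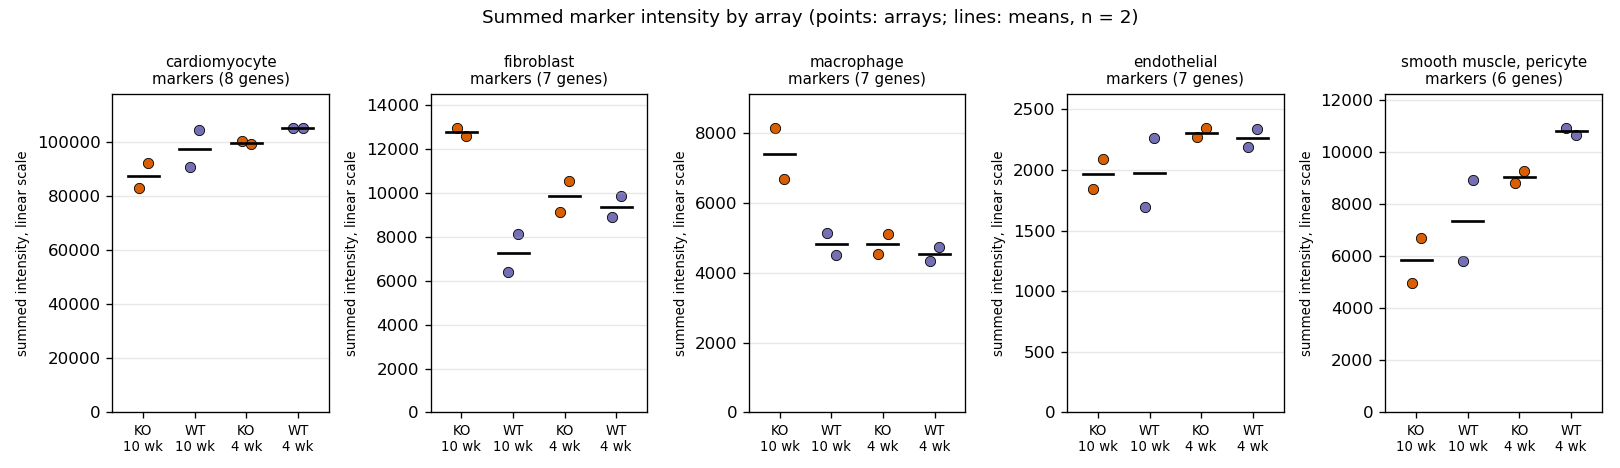
Summed RMA intensity on the linear scale of 5 cell type marker lists on each array, with KO hearts in orange, WT hearts in purple and a line at each group mean (n = 2). Fibroblast and macrophage sums are higher in both 10-week KO hearts than in both 10-week WT hearts, and the endothelial, cardiomyocyte and smooth muscle sums of KO and WT hearts overlap at 10 weeks. Dcn makes up a large part of the fibroblast sums.

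The genes whose pattern over the 8 arrays was most like that of each called ligand were taken from 9074 genes with a mean log2 intensity of 6 or more, by Pearson correlation. For Tgfb2 these were Me2, mitochondrial malic enzyme (r = 0.995), Pqlc3 (r = 0.992) and Svep1, a large extracellular matrix protein (r = 0.990). Svep1 read 579 and 473 in 10-week KO hearts, against 136 and 156 in WT. For Tgfb3 they were Acot9, a mitochondrial thioesterase (r = 0.993), Mtor, the growth-regulating kinase (r = 0.993), and Myo1c, an unconventional myosin (r = 0.992). Mtor read 326 and 354 in 10-week KO hearts, against 151 and 214 in WT, with the same low WT replicate 1 as Tgfb3. All 6 genes passed at 10 weeks in the upward direction, which follows largely from their choice by likeness to ligands called there. The arrays share groups and litters, so the correlations describe these 8 arrays only.

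**Figure D5:**
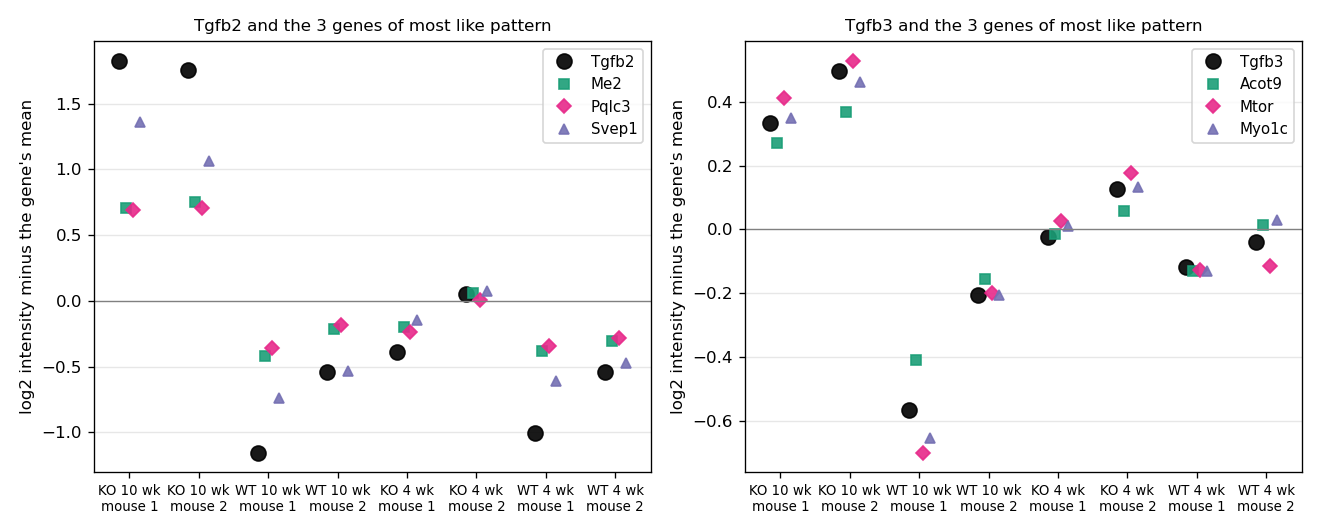
Tgfb2 (left) and Tgfb3 (right) with the 3 genes of most like pattern, as log2 intensity minus each gene's mean over the 8 arrays, 1 marker shape per gene. In the left panel the 10-week KO arrays stand above all others, and in the right panel WT replicate 1 at 10 weeks stands below all others.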

How the data were processed

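Total RNA from 8 hearts was hybridised, 1 array per heart. The deposited values were linear-scale probe set intensities. The authors ran GCOS 1.3 as well as RMA (per the submitters' processing notes, where neither the order nor the RMA version is given). RMA evens out the arrays' distributions, and log2 of the deposited intensities was taken here with no pseudocount or filter. Array medians were 34.3 to 37.3, and 2 arrays per group limit the precision. No arrays were identical. Of 45101 probe sets, 64 controls were left out, and 34945 named 1 gene, 932 several and 9160 none. Symbols were matched to RefSeq by Entrez ID for 34741. The brightest of a gene's probe sets stood for each of 18193 genes.

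In limma 3.58.1 (R 4.3.3) a linear model of the 4 group means was fitted to the 8 arrays together (eBayes, 4 residual degrees of freedom, two-sided), and checked on simulated data. A gene was called where its p, adjusted over all genes by Benjamini-Hochberg, was under 0.05. The SE of a difference had a median of 0.145. Folds are 2 to the power of the difference. The members, the 8 pathway lists and 12 marker lists were chosen with earlier results of these data known, so their counts are descriptions. Named were all members, up to 5 called genes per pathway list with the largest 10-week difference (or 2 of smallest p), any further listed gene called at 4 weeks or in the difference between the ages' effects (Col1a1, Col3a1 and Eln), and the 3 genes most like each called member, leaving out clone-like symbols; other listed genes, and marker genes were named after their values were seen. The labels do not say that replicate numbers pair mice, and no batch is given. The deleted gene is not reported here. Alternatives were other probe set rules, a level filter, quantile normalization again, median centring, eBayes with trend and robust settings, only the compared groups, a replicate block and each array left out. Shared-sequence probe sets here are all those with the suffix _s_at, _x_at or _a_at. Without them the dimmer 1450923_at stood for Tgfb2.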

Additional observations from a re-analysis of the deposited data

Results flagged for a closer look

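The KO effect differed between 10 and 4 weeks, by a test of the difference itself (limma, adjusted p under 0.05 over all genes, which 2.08% of all genes passed), for the genes below. Most were named because they were called at 10 weeks, and Col1a1, Col3a1 and Eln because they passed this test, so their number supports nothing. Tgfb2 was the only ligand among them, with an effect larger at 10 weeks by 2.03 ± 0.33 on the log2 scale (SE, adjusted p = 0.0211). It passed under 10 of 16 alternatives, and for the other genes below no alternatives of this test were examined. Of the TGF-beta and activin responsive genes, the effect was larger at 10 weeks by 3.07 for Postn, 2.94 for Timp1, 2.82 for Lox, 2.57 for Ccn2, 1.96 for Comp, 1.73 for Col3a1, 1.71 for Col1a1 and 1.25 for Eln, with adjusted p-values from 0.000814 for Ccn2 to 0.0467 for Eln. Of the latency and antagonist genes it was larger by 1.86 for Ltbp2, 1.04 for Itgb5 and 1.69 for Bgn (adjusted p = 0.00147, 0.0294 and 0.0435). For Bambi and Id1 it was lower, with differences of -1.26 and -0.95 (adjusted p = 0.0323 and 0.0430). The Tgfbr1 arrays separated in opposite directions, KO above WT by 0.68 at 10 weeks and KO below WT, by -0.27, at 4 weeks. The test of that difference gave 0.95 and did not pass (adjusted p = 0.0802).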

How the results depend on the processing

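The Tgfb2 difference at 10 weeks passed under all 17 alternatives, at 1.28 to 2.94 (adjusted p = 4.03e-05 to 0.00410), the lowest without shared-sequence probe sets, and the Tgfb3 difference under 15 of 17, at 0.62 to 0.98. The number of ligand genes called at 10 weeks was 1 with only the groups of the comparison and 1 to 2 with single arrays left out, a fit in which the lone array of a group is assumed to vary as the others do. The number whose KO effect differed between the ages was 0 to 2 with single arrays left out, 2 without WT replicate 2 at 10 weeks (Tgfb2 and Tgfb3) and 0 without any of the 4-week arrays or the 10-week KO arrays. In that test Tgfb2 passed under 10 of 16 alternatives, at 1.06 to 2.34. With quantile normalization again, 2 ligand genes were called between the ages in KO (Tgfb3 at 0.46, adjusted p = 0.0482). The main split of all genes there was 622 higher and 1286 lower, and 916 higher and 1101 lower with that normalization. No reversed difference had been called except Acvrl1, at 0.073 without shared-sequence probe sets. With probe sets averaged per gene, reversed values were -0.097 for Inhba and -0.053 for Inhbb (KO minus WT at 4 weeks), and 0.046 for Tgfb1, 0.060 for Tgfb2 and 0.012 for Inhba (10 minus 4 weeks in WT). With quantile normalization again they were 0.0059 for Bmp4 at 4 weeks and, between the ages in WT, 0.059 for Inhba, -0.057 for Bmp2 and 0.063 for Bmp4. With arrays centred on the median they were -0.016 for Inhba and -0.0022 for Bmp2 at 4 weeks, -0.020 for Bmp4 between the ages in KO and -0.070 for Bmp2 between the ages in WT. With single arrays left out, values of both signs were seen at 4 weeks for Inhba (-0.13 to 0.14), Inhbb (-0.048 to 0.15), Bmp2 (-0.099 to 0.14), Tgfb1 (-0.091 to 0.23) and Bmp4 (-0.056 to 0.018), between the ages for Bmp4 in KO (-0.0069 to 0.098) and for Tgfb2 (-0.38 to 0.23) and Bmp2 (-0.099 to 0.099) in WT, and at 10 weeks for Bmp10 (-0.011 to 0.66). The causes were not tested. Of the other ligand differences, 547 kept direction and call. Over all genes at 10 weeks the main fit called 945 higher and 1254 lower, against 400 and 559 with only the groups of the comparison and 525 to 1674 higher and 595 to 1570 lower with single arrays left out. The replicate number shared by mice was no stated pairing, and deviations of same-numbered arrays correlated at 0.23 between KO and WT at 10 weeks, 0.302 at 4 weeks, 0.0389 between the ages in KO and 0.18 in WT. With the replicate block 3 ligand genes were called at 10 weeks (Tgfb1 at 0.48, adjusted p = 0.0295), and 1216 genes higher and 1466 lower over all. The other 4 counts of ligand genes were the same with the block. The filter on genes below the median level removed Bmp2, and the fit to only the compared groups does not apply to the difference between ages. Leaving out arrays for list counts, and the alternatives for single listed genes, were added after seeing the data. 2 arrays per group, 4 residual degrees of freedom and dim probe sets such as that of Bmp2 limit what could be detected.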

Other observations

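Bmp10, which atrial muscle makes, read 100 and 130 in 4-week KO hearts, against 72.2 and 76.1 in 4-week WT hearts, a difference of 0.62 ± 0.21 (unadjusted p = 0.0166, adjusted p = 0.999). Of 5 atrial markers, 4 also had an unadjusted p under 0.05 at 4 weeks, as did 3.73% of all genes. None passed after adjustment (limma), where 0.0275% of all genes passed. Sln differed by 1.80, Myl4 by 1.32, Nppa by 1.28 and Myl7 by 1.27, all with KO higher. The summed atrial markers were 13284 and 28250 in 4-week KO hearts, against 6407 and 9404 in 4-week WT hearts, and 23710 and 23451 in 10-week KO hearts, against 16067 and 24253 in 10-week WT hearts. At 10 weeks 1 of the 5 atrial markers passed upward and 1 downward (limma), against 5.19% and 6.89% of all genes. Their 10-week differences ran from -2.35 to 1.04, with a median of -0.82. In the test of the KO effect at 10 weeks minus that at 4 weeks, 1 of the 5 passed, downward (2.08% of all genes). The part of atrial tissue in the Bmp10 values was not tested. Bmp6 was the only one of the 20 other ligands to pass between the ages in KO hearts, by 0.63 ± 0.17 (adjusted p = 0.0440), where 10.5% of all genes passed. These genes were picked after their values were seen.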
